A study of Mus musculus with 4 samples.

Results

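Naive CD4+ T cells that were polarized toward induced regulatory T cells (iTregs) in the presence or absence of IL-4 were examined by ATAC-seq, which maps chromatin open to the Tn5 transposase, and the open regions around Myc and 8 genes of metabolic activation are described here. The genes were Myc, Hif1a, Slc2a1, Slc2a3, Ldha, Hk2, Slc7a5, Slc3a2 and Mtor, 9 of the 21853 protein-coding genes with an annotated start. A locus was the gene record with 50 kb on each side, and the Myc locus also took in the 2 Mb downstream of the gene. Peaks of the 4 libraries that overlapped by at least 1 base were merged, and 255 of the 93679 merged regions lay in the 9 loci. Every one of the 9 genes had an open start site in all 4 libraries, against 58.4% of all protein-coding genes. Regions with peaks in both libraries of 1 condition and in neither of the other numbered 2 with IL-4 and 3 without. These were 0.784% and 1.18% of the 255, against 2.60% and 0.699% of all regions. All of them lay in the 2 Mb downstream of Myc, whose locus held 115 of the 255 regions.

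Naive cells had been sorted as CD62LhighCD44lowCD25- from the spleen of male wild-type C57BL/6 mice 7 weeks old. All cultures received plate-bound anti-CD3 (5 µg/ml), soluble anti-CD28 (1 µg/ml), human TGF-β1 (5 ng/ml) and mouse IL-2 (10 ng/ml) for 48 h. The 2 iTreg libraries came from cultures with no mouse IL-4 and the 2 iTreg+IL-4 libraries from cultures given it at 15 ng/ml. The cells were not sorted again for Foxp3 as far as the labels say, so that each library describes a whole culture. The study describes its ATAC-seq samples as biologically independent pools, and the sources used here do not say how many mice went into a pool. The p-values measure the spread between such pools.

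Stimulation through the T cell receptor and CD28 turns a resting T cell into a growing one, and Myc, Hif1a and Mtor stand at the centre of that switch. Myc is a transcription factor that binds E-boxes with its partner Max and drives genes of glycolysis, glutamine use and ribosome production. HIF-1α, the product of Hif1a, pairs with Arnt on hypoxia response elements and raises glycolytic genes, and mTOR is the kinase that couples amino acid supply to growth. The remaining genes are their working parts. Slc2a1 and Slc2a3 encode the glucose transporters GLUT1 and GLUT3, Hk2 the hexokinase that traps glucose in the cell, and Ldha the lactate dehydrogenase subunit that turns pyruvate into lactate. Slc7a5 and Slc3a2 encode the light and heavy chains of the transporter that brings in leucine and other large neutral amino acids. Myc lies beside a wide stretch poor in coding genes, and enhancers in the downstream part of that stretch are known to serve Myc in blood cells.

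The 2 iTreg lists held 77064 and 56645 peaks, and the 2 iTreg+IL-4 lists held 78670 and 67743. They give no read totals, so the depth is unknown, and peak heights were not compared between libraries. Each peak was placed only within its own list, by its rank, which is the percentage of peaks in that list with a higher −log10 q, so that a low percentage is a strong peak. The shortest list was that of iTreg replicate 2, and it also called the fewest of the 255 regions, 55.7% against 69.4% to 85.1% in the other libraries. Start sites of the T cell genes Cd3e and Cd28 were called in all 4 libraries, as was that of Cd4 at ranks of 65.5% to 88.0%, and the first base of Trac, a constant segment with no promoter of its own, in none. Those of the myeloid genes Lyz2 and Csf1r and of the hepatocyte gene Alb were called in none, and that of the B cell gene Ms4a1 in 3 libraries at ranks of 69.6% to 93.8%. An exact permutation test of 2 libraries against 2 cannot give a two-sided p below 0.33, so no single difference below could pass a threshold of 0.05.

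A start site region was one that overlapped the stretch from 1000 bases before to 500 bases after the start of a protein-coding transcript. All 9 genes had at least 1 such region called in all 4 libraries, while over all protein-coding genes the share was 58.4%. The best start site peak of each gene ran over a wide range, from the top 1% of a list to a rank of 36.3%, and in this range Myc and Slc2a3 stood last.

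**Figure D1:**
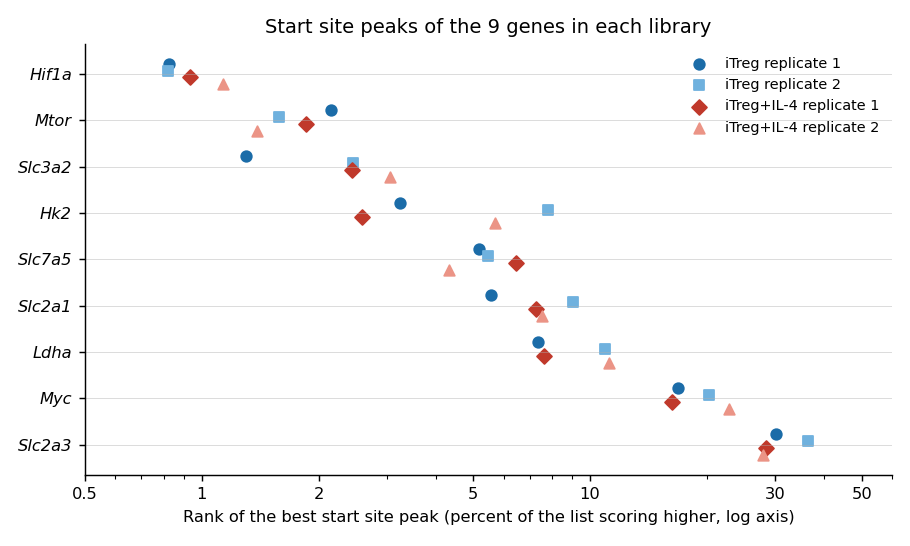
Rank of the best start site peak of each of the 9 genes in each library, as the percentage of peaks in the same list with a higher −log10 q, on a log axis with the strongest at the left. Each point is 1 library. Hif1a, Mtor and Slc3a2 lay between 0.817% and 3.06%, and Myc and Slc2a3 between 16.2% and 36.3%, with the conditions interleaved for most genes.

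Among the regulators, Hif1a (chr12:73901324-73947554, plus strand, GRCm38) had the strongest peak. The region at chr12:73907487-73908652 covered its downstream start, with its centre over a noncoding part of an exon, and ranked at 0.824% and 0.817% without IL-4 and at 0.934% and 1.14% with IL-4. The 2 libraries with IL-4 stood slightly further down their lists than either library without it, by 0.214 percentage points on average (two-sided exact permutation test, p = 0.33). An upstream start of the same gene, at chr12:73901196-73901637, was far weaker, with ranks of 64.8%, 77.2% and 85.1% and no call in iTreg replicate 2. Mtor (chr4:148448582-148557685, plus strand) had its start region at chr4:148448242-148449235, with ranks of 2.15% and 1.58% without IL-4 and of 1.86% and 1.39% with IL-4. These overlapped between the conditions.

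Myc itself (chr15:61985341-61990361, plus strand) had 2 start site regions. The first, at chr15:61984937-61985831, covered the upstream start and ranked at 16.8% and 20.2% without IL-4 and at 16.2% and 22.7% with IL-4. Its mean was 18.5% ± 2.41 without IL-4 and 19.5% ± 4.62 with it (SD, n = 2 each), a difference of 0.980 percentage points that was smaller than either spread (two-sided exact permutation test, p = 1). Ranked only among the regions called in all 4 libraries, the Myc start stood at 27.0% and 23.9% without IL-4 and at 26.6% and 32.2% with IL-4, and the difference was 3.95 percentage points, close to the SD of 3.92 between the IL-4 libraries (exact permutation test, p = 0.67). Of the coding genes with a start site peak in every library, 70.9% had a better mean rank than Myc. Its start region was thus open in both conditions but weaker than most. The second, at chr15:61986778-61987579, lay over a noncoding part of a Myc exon and ranked at 32.7% and 33.5% without IL-4 and at 42.2% and 36.1% with IL-4, which put both IL-4 libraries lower, but by height (18.4% and 19.3% against 22.1% and 19.0%) and among the regions called in all 4 libraries (52.1% and 39.5% against 66.5% and 50.8%) the conditions overlapped. The 3 genes whose start site ranks over the 4 libraries were nearest to those of Myc were Gm3055, Leng9 and Arhgef40, with mean absolute differences of 0.406, 0.508 and 0.518 percentage points.

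The glucose genes came next. Slc2a1 (chr4:119108745-119137330, plus strand) had its start region at chr4:119108409-119109472, which ranked at 5.56% and 9.03% without IL-4 and at 7.26% and 7.53% with IL-4, the IL-4 values lying between the other 2. Hk2 (chr6:82725025-82774454, minus strand) ranked at 3.24% and 7.78% without IL-4 and at 2.59% and 5.70% with IL-4 in the region over its start, chr6:82774142-82774895, and Ldha (chr7:46842274-46855627, plus strand) ranked at 7.36% and 10.9% without IL-4 and at 7.61% and 11.2% with IL-4 at chr7:46845357-46847423. For both genes the libraries numbered 1 stood above the libraries numbered 2 in either condition, and the conditions overlapped. A second start region of Hk2, at chr6:82773269-82773858, was weaker and ranked at 60.2% and 66.7% without IL-4 and at 56.2% and 51.7% with IL-4, which put both IL-4 libraries higher, though not among the regions called in all 4 libraries (84.5% and 76.6% against 82.0% and 70.6%).

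Slc2a3 (chr6:122727809-122802363, minus strand) was the exception in this group, since neither of its start regions was strong. That at the outer start, chr6:122801138-122802355, ranked at 31.3% and 40.5% without IL-4 and at 28.4% and 30.9% with IL-4, so that both IL-4 libraries stood higher. That at the inner start, chr6:122742029-122743554, ranked at 30.2% and 36.3% without IL-4 and at 33.0% and 27.9% with IL-4, and the conditions overlapped. The better of the 2 in each library ranked at 30.2% and 36.3% without IL-4, and at 28.4% and 27.9% with IL-4, a difference of −5.13 percentage points between the means (two-sided exact permutation test, p = 0.33), and this value draws on both regions, since the outer one was the better in iTreg+IL-4 replicate 1 alone. The strongest region of its locus lay instead outside the gene, upstream at −8.75 kb, at chr6:122810245-122811978, and ranked at 1.07% and 2.27% without IL-4 and at 1.08% and 2.58% with IL-4. It overlapped the start window of Gm5112, a gene not annotated as protein-coding.

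Both chains of the amino acid transporter had strong start sites. Slc7a5 (chr8:121881146-121907686, minus strand) ranked at 5.18% and 5.45% without IL-4 and at 6.43% and 4.34% with IL-4. Slc3a2 (chr19:8706882-8723369, minus strand) ranked at 1.30% and 2.46% without IL-4 and at 2.44% and 3.06% with IL-4, and the values of the conditions overlapped slightly. An internal start of Slc3a2, at chr19:8712845-8714155, ranked at 13.9% and 17.8% without IL-4 and at 10.8% and 12.2% with IL-4, in the opposite direction to the outer start. Over the 9 genes, the best ranks of the conditions did not overlap for 1 gene that stood higher with IL-4, Slc2a3, against a background of 20.0% of genes, and for 1 that stood lower, Hif1a, against 5.67%. These counts changed with the ranking. By height they were 1 (Slc2a3) and 0, against 21.3% and 4.68% of genes, and among the regions called in all 4 libraries they were 0 and 2 (Hif1a and Slc3a2), against 12.6% of genes in each direction. In that last ranking Slc3a2 stood at 2.09% and 2.91% without IL-4, and at 4.02% and 4.33% in the IL-4 libraries, a difference of 1.67 percentage points (exact permutation test, p = 0.33). In the same ranking the conditions overlapped for Slc2a3, at 48.3% and 42.8% without IL-4 and at 46.3% and 39.4% with it (exact permutation test, p = 0.67). Ranked by height, they overlapped for Hif1a, at 0.581% and 0.867% without IL-4 and at 0.667% and 0.852% with it (exact permutation test, p = 1). None of the 9 differences passed the test after Benjamini-Hochberg adjustment over the 9 genes (exact permutation tests, adjusted p = 1 for each).

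Promoter sequences, the 250 bases before the start, are shown for Hif1a and Ldha, whose entries held the E-box that Myc is known to read, and for Hk2, which held a core of the hypoxia response element at 2 positions. Each stretch lay wholly inside an open start region. The letters searched were CACGTG, the E-box, and ACGTG and GCGTG, the cores of the hypoxia response element, together with the letters known for STAT6, the factor that IL-4 acts through, and for AP-1 and RUNX, all on both strands. ACGTG is contained in CACGTG, so an E-box counts under both. Sequences are from RefSeq on GRCm38.p6, 5′ to 3′ on the gene's strand, with matches in capitals.
Hif1a, chr12:73907617-73907866, plus strand: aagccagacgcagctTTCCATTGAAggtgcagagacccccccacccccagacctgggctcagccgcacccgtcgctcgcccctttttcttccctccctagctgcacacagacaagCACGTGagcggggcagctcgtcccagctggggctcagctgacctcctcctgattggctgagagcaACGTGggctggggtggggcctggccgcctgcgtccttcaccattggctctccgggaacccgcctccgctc
Ldha, chr7:46845554-46845803, plus strand: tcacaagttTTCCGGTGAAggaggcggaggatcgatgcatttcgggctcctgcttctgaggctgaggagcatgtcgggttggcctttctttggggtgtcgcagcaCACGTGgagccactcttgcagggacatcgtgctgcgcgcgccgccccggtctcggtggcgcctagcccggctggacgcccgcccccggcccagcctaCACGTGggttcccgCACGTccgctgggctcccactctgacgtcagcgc
Hk2, chr6:82774455-82774704, minus strand: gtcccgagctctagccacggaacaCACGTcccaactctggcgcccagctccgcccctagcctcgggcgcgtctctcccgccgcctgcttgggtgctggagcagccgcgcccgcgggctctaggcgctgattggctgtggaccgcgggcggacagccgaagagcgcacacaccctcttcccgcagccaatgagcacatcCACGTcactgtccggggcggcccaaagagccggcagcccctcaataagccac

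The Ldha stretch held 2 E-boxes and the Hif1a stretch 1, while the Hk2 stretch held ACGTG at 2 positions and no E-box. Promoter entries were matched for 6 of the 9 genes (7 entries, 2 of them for Ldha), and those of Myc, Slc2a3 and Slc7a5 were not. Of the 7 entries, 2 held CACGTG and 5 held ACGTG, against 6.02% and 16.6% of all 32851 entries over the same 250 bases. GCGTG was found in 2 of 7 and in 28.2% of all. The STAT6-type letters, TTCNNNNGAA, were also in 2 of 7, once each in the Hif1a and Ldha stretches shown, against 5.85% of all entries. The RUNX letters, TGTGGT, were in 2 of 7 against 14.0%, and the AP-1 letters, TGANTCA, in 0 of 7 against 6.75%. The entries of Slc2a1, with ACGTG and GCGTG once each and the RUNX letters once, and of Slc3a2, with ACGTG and the RUNX letters once each, also lay inside open start regions and are not printed. These matches are letters in an open region and were not tested.

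The wider pathway was described by the start sites of 71 further genes in 6 lists. A start site region in all 4 libraries was found for 65 of them, or 91.5%, beside the 58.4% of all coding genes. All 12 genes of the Myc network (among them Max, the obligate partner of Myc, and its antagonists Mxd1 and Mnt), all 8 hypoxia factor partners and regulators (among them Arnt and the von Hippel-Lindau gene Vhl) and all 15 genes of the mTOR complexes and their regulators (among them Rptor and Tsc2) had one. So did 17 of 19 glycolytic enzymes, 6 of 8 glucose and lactate transporters and 7 of 9 amino acid transporters. No start site peak was called in any library for Slc2a2, the glucose transporter of liver and pancreatic islets, for Slc2a5, a fructose transporter, or for Hk3, a hexokinase of myeloid cells. Slc7a7 and Slc7a11, named after their values were seen, had calls in 1 and 3 libraries, at ranks no better than 76.7%.

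No gene of the lists had a start site peak in both libraries of 1 condition and in neither of the other. The ranks of 11 of the 65 genes stood higher in both IL-4 libraries, against the background of 20.0%, and those of 2 stood lower, against 5.67%. Among the regions called in all 4 libraries these counts were 5 and 6 of 65, against 12.6% of genes in each direction. The largest of these gaps, named after the values were seen, was that of Slc7a8, a neutral amino acid transporter, which ranked at 63.4% and 70.7% without IL-4 and at 48.0% and 50.5% with IL-4. The 2 that stood lower with IL-4, also named after their values were seen, were Slc38a1, a glutamine transporter, at 30.7% and 30.8% against 33.8% and 35.3%, and Rictor, the defining subunit of mTOR complex 2, at 19.7% and 20.7% against 25.1% and 22.0%. Neither was lower in every ranking, since the conditions overlapped by height for Slc38a1 and among the regions called in all 4 libraries for Rictor. The median difference over the 65 genes was −0.645 percentage points, close to the −0.655 of all 12773 coding genes with a peak in every library.

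Presence across the 4 libraries was then compared over all 255 regions. Of these, 132 were called in all 4 libraries, or 51.8%, against 51.0% of all regions. Among the 223 distal regions, which overlapped no start site window of a coding gene, 105 or 47.1% were called in all 4, against 44.5% of all distal regions. A further 56 of the 255, or 22.0%, were called in a single library, against 21.6% of all regions. In the extent of called chromatin, the difference between the condition means was smaller at all 9 loci than the SD between the 2 libraries without IL-4.

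**Figure D2:**
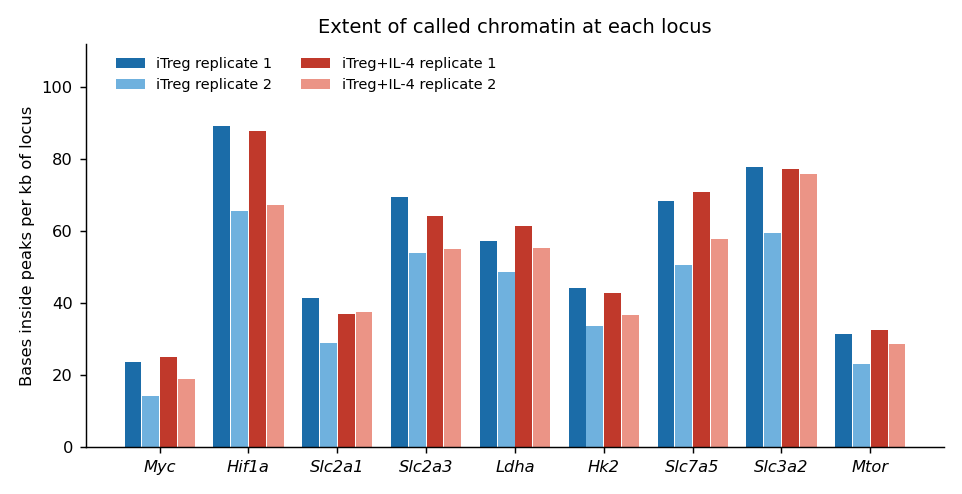
Bases inside peaks per kb of locus for each of the 9 genes, with 1 bar for each library. The bar of iTreg replicate 2 is the lowest at every locus, and the locus of Myc, which holds 2 Mb of downstream sequence, has the lowest bar of each library, from 14.1 to 25.0 bases per kb.

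At the Myc locus, the bases inside peaks numbered 48378 and 28881 in the iTreg libraries and 51450 and 39073 in the iTreg+IL-4 libraries. The mean was higher with IL-4 by 6632 bases, within the SD of 13787 between the libraries without IL-4 (two-sided exact permutation test, p = 0.67), and the difference was −3117 bases when iTreg replicate 2 was left out. At the other 8 loci the mean differed by −360.0 to 934.5 bases, and the p-values were 0.67 or 1 (exact permutation tests, adjusted p = 1 over the 9 loci). As a share of all bases inside peaks of the same list, the Myc locus held 11.9 and 9.86 in 10000 in the iTreg libraries, compared with 12.2 and 10.9 in the iTreg+IL-4 libraries. This share was lower in both IL-4 libraries at 3 loci, those of Hif1a, Slc2a3 and Hk2, against 15.0% of the 18055 protein-coding gene records with 50 kb on each side and peaks in every library, and higher in both at none, against 13.6%. At Slc2a3 it was 2.98 and 3.22 in 10000 without IL-4, compared with 2.66 and 2.67 in the IL-4 libraries (two-sided exact permutation test, p = 0.33, adjusted p = 1).

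The Myc locus contributed 115 of the 255 regions. Open chromatin downstream of the gene was concentrated in its first Mb, where 44 of 85 regions were called in all 4 libraries, and thinned out in the second, where 5 of 27 were. The genome held 17.5 such regions per Mb on average. From the Myc start to 500 kb there were 31 regions called in all 4, and 38 of the regions of the locus, 24 of them in all 4 libraries, had their centre inside Pvt1 (chr15:62037986-62378096), a long noncoding RNA gene that follows Myc. A second group lay between 713.4 and 847.9 kb, partly inside introns of the noncoding gene Gm41333, after a gap in which few peaks were called.

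**Figure D3:**
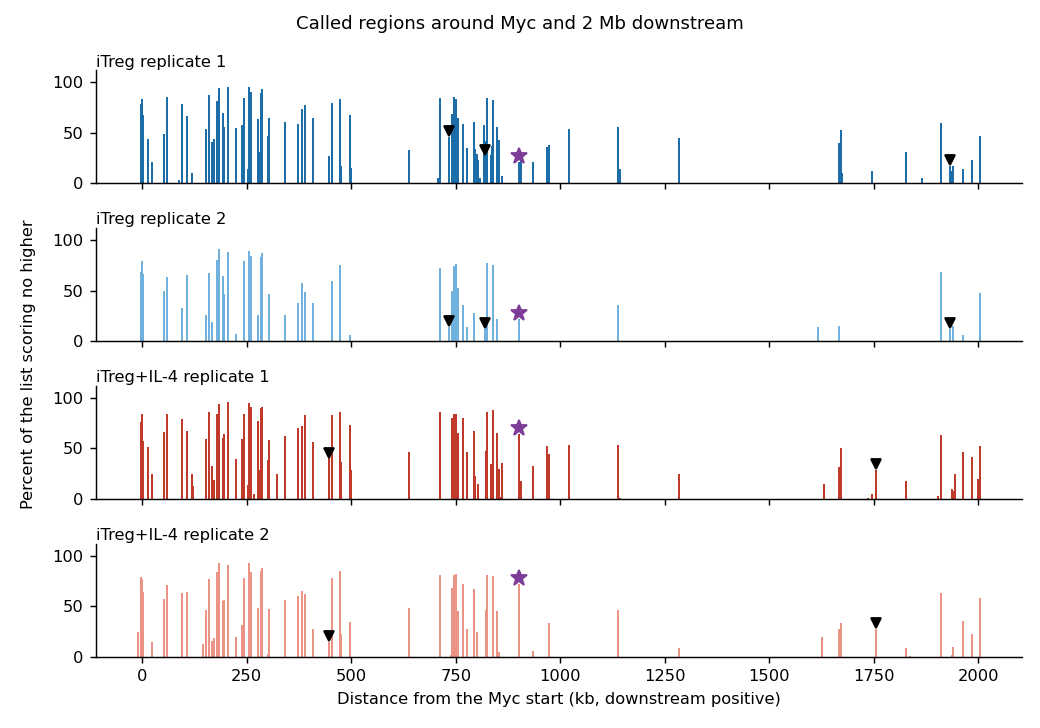
Regions called around Myc and in the 2 Mb downstream, by distance from the Myc start (kb) and in 1 panel for each library. The height of a line is the percentage of the list scoring no higher, black triangles mark the 5 regions called in both libraries of 1 condition and neither of the other, and the star marks the region at 900.2 kb, which stood higher with IL-4.

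The strongest distal regions of the Myc locus ranked above its promoter in every library. That at chr15:62169126-62170303, 184.4 kb downstream in an intron of Pvt1, had the best mean rank, at 5.74% and 8.57% without IL-4 and at 5.44% and 6.68% with IL-4. Its neighbours at chr15:62189585-62190787 (204.8 kb) and chr15:62239880-62240454 (254.8 kb), named after their values were seen, ranked between 4.10% and 11.7%. In each of the 3 the conditions overlapped. Thus the part of the locus that was most open in these T cells lay inside Pvt1 and was called in all 4 libraries.

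Regions called in only 1 condition were found at the Myc locus and at none of the other 8 loci. There were 2 called in both IL-4 libraries and in neither iTreg library, or 0.784% of the 255 regions against 2.60% of all regions. There were 3 in the reverse direction, or 1.18% against 0.699%. Both counts rest on which libraries are asked. The first was 30 without iTreg replicate 1, 13 without iTreg+IL-4 replicate 1 and 22 without iTreg+IL-4 replicate 2, and the second was 8 without iTreg replicate 1 and 23 without iTreg replicate 2. The shares over all regions with the same library left out are not given here, so these counts cannot be read as a trait of these loci.

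Of the regions called only with IL-4, that at chr15:62432915-62433232 lay 447.7 kb downstream of the Myc start in intergenic sequence, at ranks of 60.3% and 85.6%. The other, at chr15:63740536-63740980, lay 1755 kb downstream over an exon at the start of the noncoding gene Gm41336, at ranks of 71.5% and 72.8%. Those called only without IL-4 lay at chr15:62718769-62719068 (733.6 kb, an intron of Gm41333), at ranks of 54.1% and 85.7%, at chr15:62804384-62804798 (819.2 kb, intergenic), at 72.6% and 88.4%, and at chr15:63917648-63917994 (1932 kb, an exon of the pseudogene Gsdmcl-ps), at 82.7% and 88.2%. All 5 were weak, since none of these ranks was better than 54.1%.

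A larger difference was seen in a region that was called in all 4 libraries. The region at chr15:62885137-62885950 lay 900.2 kb downstream of the Myc start in intergenic sequence. It ranked at 78.9% and 78.0% without IL-4 and at 35.4% and 28.1% with IL-4. Its −log10 q, which also depends on the unknown depth of each library, was 8.09 and 5.83 in the iTreg libraries, and 43.3 and 56.5 in the iTreg+IL-4 libraries. The means were 78.5% ± 0.605 and 31.7% ± 5.16 (SD, n = 2 each), a difference of −46.8 percentage points that was larger than either spread, with the p of 0.33 that is the smallest this exact permutation test allows. Of the 47767 regions called in all 4 libraries, 6 rose further in rank with IL-4. The difference was −43.1 to −50.4 percentage points when each library was left out in turn. It was picked for description once its values were known.

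IL-4 acts through STAT6, which is known to bind palindromes with 4 bases between their arms. The centres of the 900.2 kb region and of the 5 regions called in 1 condition were therefore searched on both strands for the same STAT6-type, AP-1 and RUNX letters. The central 200 bases are given on the plus strand of GRCm38, with matches in capitals.
900.2 kb, higher with IL-4, chr15:62885444-62885643: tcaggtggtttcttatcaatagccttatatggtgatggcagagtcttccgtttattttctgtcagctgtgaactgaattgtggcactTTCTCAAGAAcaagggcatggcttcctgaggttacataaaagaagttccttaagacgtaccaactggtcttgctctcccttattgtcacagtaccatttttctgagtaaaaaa
447.7 kb, only with IL-4, chr15:62432974-62433173: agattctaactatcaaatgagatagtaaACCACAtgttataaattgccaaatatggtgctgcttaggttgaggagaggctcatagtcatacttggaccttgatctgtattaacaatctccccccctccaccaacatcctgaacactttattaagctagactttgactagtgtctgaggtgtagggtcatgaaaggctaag
1755 kb, only with IL-4, chr15:63740658-63740857: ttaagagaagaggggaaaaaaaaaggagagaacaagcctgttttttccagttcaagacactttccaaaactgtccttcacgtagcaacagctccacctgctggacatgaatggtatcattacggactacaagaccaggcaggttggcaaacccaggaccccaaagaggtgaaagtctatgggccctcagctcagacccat
733.6 kb, only without IL-4, chr15:62718819-62719018: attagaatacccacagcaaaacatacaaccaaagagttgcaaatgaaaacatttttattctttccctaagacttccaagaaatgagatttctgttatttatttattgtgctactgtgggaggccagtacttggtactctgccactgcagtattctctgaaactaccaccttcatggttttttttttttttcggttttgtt
819.2 kb, only without IL-4, chr15:62804491-62804690: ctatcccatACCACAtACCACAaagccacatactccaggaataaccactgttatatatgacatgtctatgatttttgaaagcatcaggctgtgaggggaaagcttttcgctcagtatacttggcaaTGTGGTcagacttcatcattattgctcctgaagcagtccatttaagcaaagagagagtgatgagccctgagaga
1932 kb, only without IL-4, chr15:63917721-63917920: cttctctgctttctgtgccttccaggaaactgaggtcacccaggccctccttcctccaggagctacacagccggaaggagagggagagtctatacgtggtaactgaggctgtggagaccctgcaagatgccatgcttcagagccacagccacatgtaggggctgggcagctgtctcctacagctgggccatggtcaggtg

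The region at 900.2 kb held 1 match of the STAT6-type letters, and none of the other 5 did. The RUNX letters were found once in the region at 447.7 kb and 3 times in that at 819.2 kb, and the AP-1 letters in none of the 6. Among all 78132 distal regions, 6.36% held the STAT6-type letters in their central 200 bases, 14.7% the AP-1 letters and 23.7% the RUNX letters. The 113 distal regions of the Myc locus held them in 7, 23 and 28 cases, or 6.19%, 20.4% and 24.8%. Of the 18 distal regions at the 9 loci that ranked higher in both IL-4 libraries, that at 900.2 kb was the 1 with the STAT6-type letters, or 5.56%, against 10.6% of the 6820 such distal regions in all. The E-box was in 3 of the 113 at the Myc locus, or 2.65%, and in 13 of the 223 distal regions of the 9 loci, or 5.83%, against 3.51% of all distal regions. Among the distal regions called in all 4 libraries it was in 10 of 105 at the 9 loci, or 9.52%, against 3.87%. Of these 10, 2 lay at the Myc locus and 2 at Hk2, where the strongest distal region, in an intron at chr6:82740119-82740832, held one and ranked at 7.03% and 12.4% without IL-4 and at 5.70% and 11.2% with IL-4. These counts are descriptions of sequence and were not tested.

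Ranks that did not overlap between the conditions were next counted over the 132 regions called in all 4 libraries. In 24 of them, or 18.2%, both IL-4 libraries stood higher, against 19.7% of all such regions, and in 6, or 4.55%, both stood lower, against 5.18%. Ranking only among the regions called in all 4 libraries, which does not depend on the length of a list, gave 22 and 15, against 14.3% and 12.7% of all such regions. The median difference was −2.16 percentage points at the 9 loci and −2.05 over all 47767 regions, so that both the counts and the shift at these loci lay near the background.

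**Figure D4:**
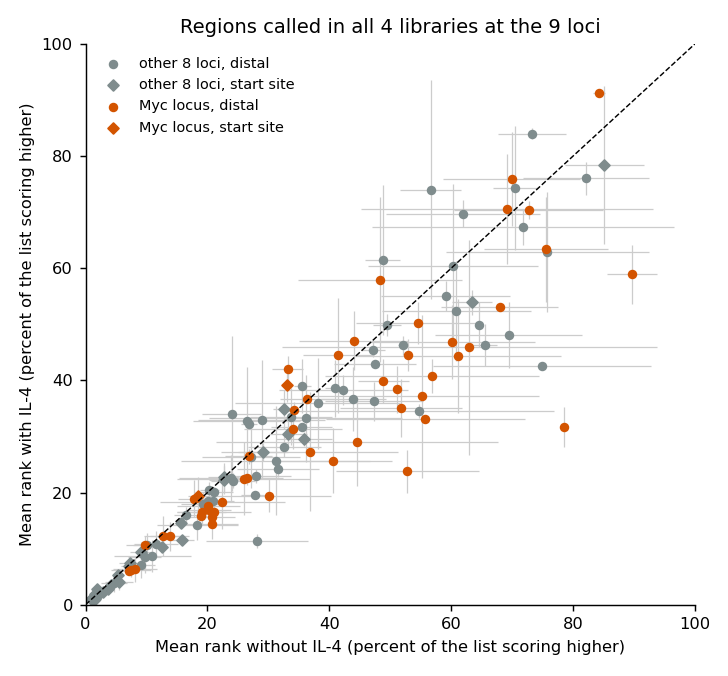
Mean rank without IL-4 (x axis) and with IL-4 (y axis) of the 132 regions called in all 4 libraries at the 9 loci, as the percentage of the list scoring higher. Bars span the 2 libraries of each condition, the dashed line marks equal rank, and the Myc region at 78.5% without IL-4 and 31.7% with IL-4 lies furthest below it.

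Of the 24 that stood higher with IL-4, 11 were distal regions of the Myc locus, which held 49 of the 105 distal regions called in all 4 libraries. The 11 were thus 22.4% of its distal regions, against 19.6% of all distal regions called in all 4. After that at 900.2 kb, the largest gaps there, named after the values were seen, were at chr15:63948543-63949662 (1964 kb, an intron of Fam49b), which ranked at 85.6% and 93.7% without IL-4 and at 53.7% and 64.2% with IL-4, and at chr15:62752405-62753425 (767.6 kb, an intron of Gm41333), which ranked at 41.0% and 64.6% against 20.0% and 27.7%. The region over the start of Pvt1, at chr15:62037708-62039436, also named after its values were seen, ranked at 51.4% and 50.8% without IL-4 and at 34.1% and 42.7% with IL-4, although by height and among the regions called in all 4 libraries its conditions overlapped. In the opposite direction, the region at chr15:62177687-62178239 (192.6 kb, over an alternative start within Pvt1), chosen likewise, ranked at 30.7% and 35.7% without IL-4 and at 39.8% and 44.4% with IL-4, and its conditions overlapped by height. Of the 24 regions inside Pvt1 called in all 4 libraries, 4 stood higher with IL-4 and 1 lower, or 16.7% and 4.17%, against 19.7% and 5.18% of all regions. By height these counts were 2 and 0, or 8.33% and 0%, against 20.4% and 4.42% of all regions called in all 4 libraries. Ranked among the regions called in all 4 libraries, they were 3 and 4, or 12.5% and 16.7%, against 14.3% and 12.7%.

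At the other loci the strongest distal region, taken among those called in all 4 libraries, overlapped in rank between the conditions in all cases but that of Mtor. It ranked at 2.48% and 6.78% without IL-4 and at 2.27% and 5.49% with IL-4 at Hif1a (chr12:73887720-73888707, in an intron of the antisense gene Gm15283). At Slc2a1 (chr4:119105677-119106232, intergenic, at −2.79 kb) it ranked at 6.79% and 11.3% against 4.84% and 9.45%. At Slc7a5 (chr8:121898154-121899024, an intron) it ranked at 4.64% and 17.3% against 5.93% and 11.6%. In these 3, as at Hk2 and Slc2a3, the values of the conditions overlapped, and the libraries numbered 2 stood lower than those numbered 1.

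Ldha had its strongest distal region at chr7:46833290-46833751, which ranked at 7.95% and 15.2% without IL-4 and at 8.51% and 13.1% with IL-4. Another region of the Ldha locus, chr7:46899220-46900055 in an intron of Tsg101, ranked at 19.8% and 36.5% without IL-4 and at 10.1% and 12.6% with IL-4, and was named after its values were seen. Slc3a2 had its strongest in an intron at chr19:8711794-8712453, at 18.1% and 22.2% against 18.1% and 19.0%. Mtor alone had a strongest distal region whose ranks did not overlap, in an intron at chr4:148509312-148510047, which ranked at 25.5% and 30.1% without IL-4 and at 19.8% and 19.3% with IL-4 (two-sided exact permutation test, p = 0.33).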

How the data were processed

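ATAC-seq libraries (2 without and 2 with IL-4) were represented by the peak list that the authors deposited for each. Per the submitters' processing notes, Bowtie2 2.2.5, MACS2 2.1.2, bedtools 2.16.2 and mm10 were used, and the study's methods name Bowtie2 alignment to mm10 and MACS2 calling. A shift for the transposase or removal of duplicates is not given in the sources used here. Each deposited list gives peak positions with the authors' −log10 q-value (lowest value 1.31 in each list) and their signal, the pileup height, which carries no scaling for depth. Peaks were called per library.

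Peaks of the 4 lists were merged at 1 base of overlap, and a region was called in a library where a peak of its list lay in it. Depth is unknown, so peaks were ranked within their list by −log10 q. Gene records were from RefSeq (GRCm38.p6, the sequence of mm10) and transcript starts and annotation from GENCODE M21. Start site windows ran 1000 bases upstream to 500 downstream. Differences of means were tested by two-sided exact permutation over the libraries. The genes, lists and rules were chosen with earlier results of these data known. Named were the 9 genes, per locus the regions over the start and those called in 1 condition only, the distal region with the best mean rank, list genes with a peak in 1 condition only or in none, and the 3 genes nearest to Myc in start site rank. Others were named after their values were seen, as stated beside them. Some genes of the lists are not reported here by name. Alternatives were the upper 50% of each list, lists of equal length (56645 peaks by height), peaks covering at least 50% of a region, other windows and flanks, other rankings, a replicate block and each library left out. The code was tested on simulated data. Python 3.11.15, numpy 2.4.6, pandas 2.3.3, scipy 1.17.1, pysam 0.24.0 and samtools 1.23.1 were used.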

Additional observations from a re-analysis of the deposited data

How the results depend on the processing

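The lists hold peaks without reads, and with 2 libraries per condition no single test could pass 0.05. All 9 genes kept a start site region called in all libraries under every alternative run. Regions called only with IL-4 numbered 5 in the upper 50% of each list, 8 where peaks had to cover at least 50% of a region, 4 with 100 kb on each side, 0 without the 2 Mb downstream of Myc and 2 to 30 with 1 library left out. Those called only without IL-4 numbered 0, 1, 3, 0 and 4 to 23. The shares over all regions under these alternatives are not given here. Regions called in all libraries numbered 81 in the upper 50%, 85 without the 2 Mb downstream of Myc and 132 to 160 with 1 library left out. Of the 132 regions called in all 4 libraries, those ranked lower with IL-4 numbered 2 by height, against 4.42% of all such regions. They numbered 15 when ranked among the regions that all 4 libraries shared, against 12.7%. Those ranked higher with IL-4 numbered 22 in each of these rankings, against 20.4% by height and 14.3% among the shared regions. Both rankings were picked with the values already known. The cause of these changes was not tested, apart from the smaller lists, loci or number of libraries that the alternatives themselves set.

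Bases inside peaks (iTreg+IL-4 mean minus iTreg mean) changed sign at Slc2a3, to 95.5 in the upper 50% and 198 in lists of equal length, at Hif1a, to −392 in lists of equal length, and at Ldha and Slc7a5, to −94.0 and −115 with 10 kb on each side. With 1 library left out they ran from −3117 to 16381 at Myc, −1693 to 1724 at Hif1a, −537.5 to 1097 at Slc2a1, −1702 to 981.5 at Slc2a3, −680.0 to 915 at Hk2, −496.5 to 1749 at Slc7a5, −139 to 2008 at Slc3a2 and −153 to 1538 at Mtor. They kept their sign at Ldha, where they ran from 110.5 to 1102.5. Start site rank differences changed sign by height at Slc2a1 (−0.31) and Slc7a5 (−0.22). With 1 library left out they ran from −2.29 to 4.25 at Myc, −1.64 to 1.83 at Slc2a1, −1.53 to 2.08 at Ldha, −3.64 to 0.91 at Hk2, −0.98 to 1.11 at Slc7a5 and −0.52 to 0.044 at Mtor. They kept their sign at Hif1a (0.11 to 0.31), Slc2a3 (−8.18 to −2.07) and Slc3a2 (0.29 to 1.45).

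Same-numbered libraries deviated together in rank (r = 0.452 over the 47767 regions called in all 4 libraries), which 2 numbers cannot establish as pairing. In a paired comparison with a replicate block, the Myc locus still differed by 6632 bases (exact sign-flip test, p = 0.50, the smallest it can give) and the Myc start by 0.980 percentage points (exact p = 1), and no call changed.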
